A study of Mus musculus with 12 samples.

Results

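The enzymes of amino acid catabolism in liver were examined as a set of 49 named genes, which cover the breakdown of histidine, serine, tyrosine, tryptophan, glycine, methionine, cysteine, proline, lysine and the branched-chain amino acids, together with the aminotransferases. They were listed by function, as enzymes that break down amino acids, with earlier results of these data known. A gene counted as measured when the array's annotation gave it at least 1 probe set with no second gene, which held for 46 of the 49, among 19938 genes tested in all. Ahcy was left out because its 3 probe sets also list Gm4737, and Sds and Sdsl had no such probe set in the annotation used here.

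The liver is the main site where amino acids are taken apart. Nitrogen is first passed on by aminotransferases or released as ammonia, and the carbon skeletons are then turned into intermediates of the citric acid cycle, acetyl-CoA or one-carbon units. Many of these enzymes are made mostly by hepatocytes and are raised by glucagon and glucocorticoids, the hormones of fasting, while insulin opposes glucagon.

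Livers of 12 C57Bl/6J mice were profiled, 1 array per mouse. Mice were 10 weeks old. In 6 of them an adenovirus injected by vein encoded a scrambled hairpin (sh scramble), in the other 6 a hairpin that targets Grb14 (sh Grb14), and every liver was collected from a fed mouse on day 7. Mice are numbered 1 to 6 within a group in the order of the records, and the numbers pair nothing. Grb14 docks on the insulin receptor once it is active and restrains its signalling, and the comparison asks how liver gene expression differs when Grb14 is reduced. Both groups thus carry adenovirus and a hairpin, the labels name 1 hairpin against Grb14, and mice without virus were not analysed here.

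Values are log2 levels of RNA, so a difference of 1 is a 2-fold difference. A fall of an enzyme, a step or a pathway here is a fall of RNA. The arrays did not measure protein, enzyme activity or metabolites. The array medians over all probe sets lay between 7.06 and 7.17. Over the genes tested, the medians ran from 7.516 in sh scramble mouse 5 to 7.737 in sh Grb14 mouse 1. There every sh Grb14 array lay above every sh scramble array, and the main fit did not correct for this. Grb14 lay between 10.08 and 10.25 in sh scramble livers and between 8.02 and 8.44 in sh Grb14 livers, which is 26.7% of the sh scramble level. Alb, the albumin gene that marks hepatocytes, stood near the top of the scale in both groups (13.92 and 13.95). Of 8 kidney tubule markers, a neighbouring tissue that also holds amino acid enzymes, 6 were lower and 2 did not pass (median −0.19). Among all genes tested 39.5% were lower. The list means of the kidney markers were 6.67 to 6.90 in sh scramble and 6.46 to 6.73 in sh Grb14 livers. Their median level stood at percentile 34.4 of all genes, and the groups overlapped for all 8.

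RNA of the amino acid catabolism enzymes fell almost throughout in sh Grb14 livers. Of the 46 measured genes 44 were lower, 0 were higher, and Gpt2 and Got2 did not pass the test (limma, Benjamini-Hochberg adjusted p under 0.05 over all genes). At an unadjusted p under 0.05 the number higher was also 0. Among all genes tested 39.5% were lower and 25.8% higher, and 40.2% were lower and 37.9% higher in the upper 9969 genes by mean level, where all 46 enzymes lie. The median change of the enzymes was −0.93, against −0.10 for all genes and −0.02 for genes above the median level. In 43 of the 46 enzymes every sh Grb14 liver lay below every sh scramble liver, which was so for 20.8% of all genes. With quantile normalization Got2 instead passed as higher (0.0696, adjusted p = 0.0178), and with arrays centred on the genes tested both Gpt2 and Got2 passed as lower (−0.16 each; adjusted p 0.003 and 0.00034), while the share of all genes lower rose to 64.9%.

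**Figure D1:**
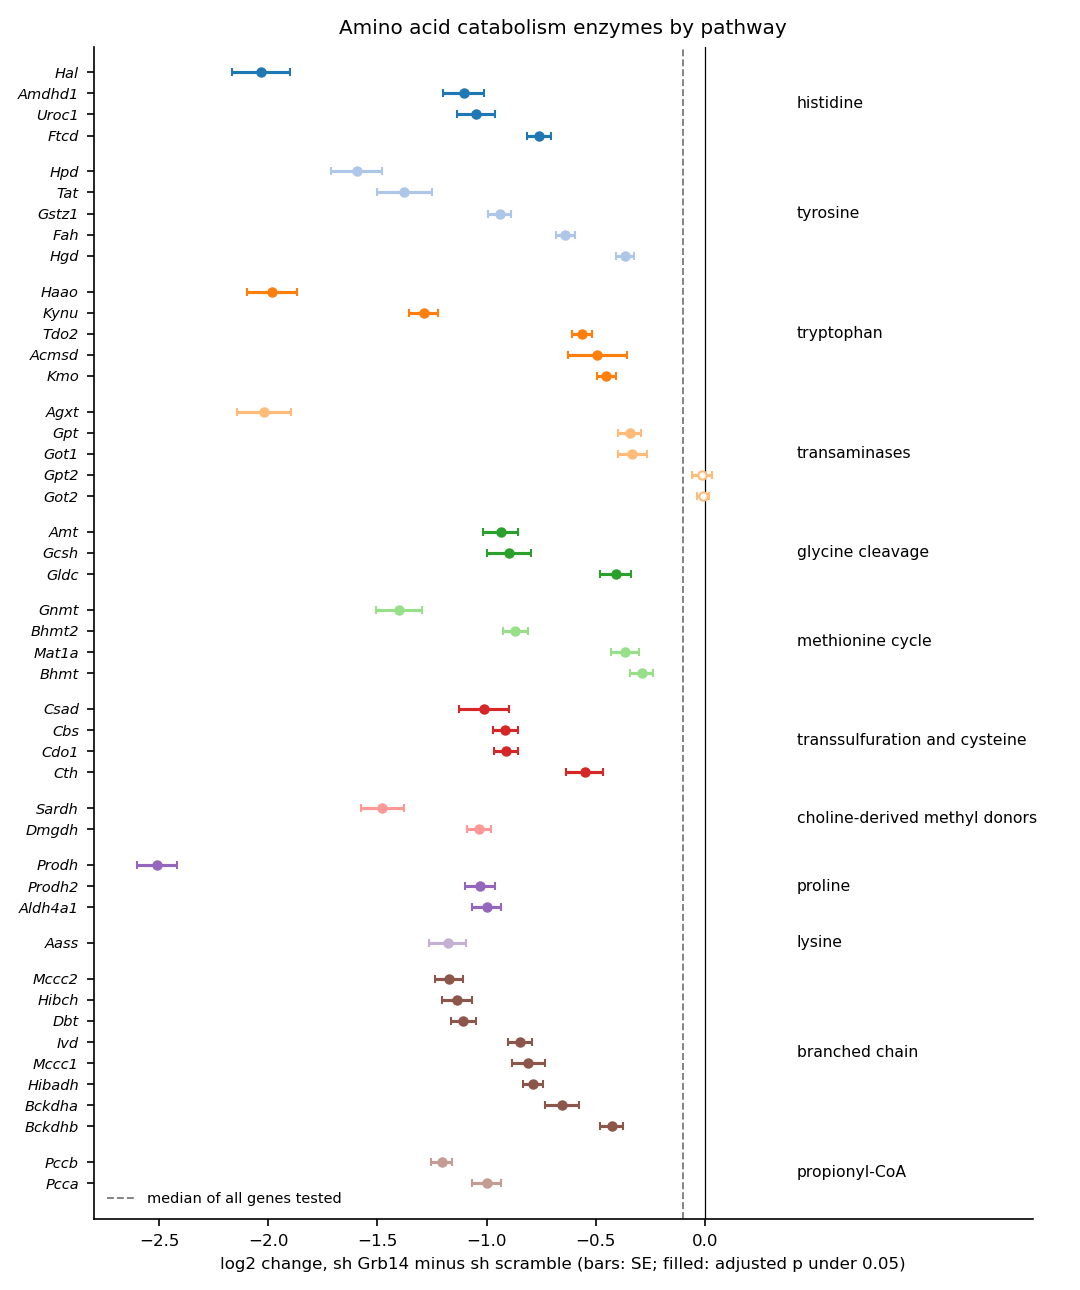
Log2 change of each measured enzyme, sh Grb14 minus sh scramble, with its SE (6 mice per group), grouped by pathway. Filled points passed the limma test and the dashed line is the median of all genes (−0.10). The points run from −2.51 for Prodh to −0.01 for Got2, and Gpt2 and Got2 are the only open points.

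The sizes of the falls spread widely. The change was at least 4-fold for 3 enzymes, at least 2-fold for 21, between 1.5-fold and 2-fold for 12 and smaller for the other 11 that passed. A fall of at least 2-fold that passed the test was found for 2.65% of all genes. Under the alternatives the number of enzymes at least 2-fold lower ranged from 15, without sh Grb14 mouse 4, to 27, with arrays centred on the genes tested. Fewer hepatocytes and less RNA per hepatocyte cannot be told apart in whole liver. In the same livers all 9 measured markers of monocytes and recruited macrophages rose, with a mean over the list of 7.69 to 8.04 in sh scramble and 9.57 to 9.91 in sh Grb14 livers. Of 8 T cell markers 7 rose and Cd4 fell (list means 7.13 to 7.28 against 8.45 to 8.77). Neutrophil markers rose in 7 of 9, stellate cell and fibroblast markers in 5 of 8 and Kupffer cell markers in 5 of 10, with list medians of 1.495, 0.82 and 0.79. Of the other stellate cell and fibroblast markers 2 fell and 1 did not pass. The other 2 neutrophil and the other 5 Kupffer cell markers did not pass. Of 8 sinusoidal endothelial markers 5 fell and 2 rose, and of 5 cholangiocyte markers 1 rose and 4 did not pass. Among all genes 39.5% were lower and 25.8% higher, and among genes above the median level 40.2% and 37.9%. Of 4 fetal liver genes 3 rose, Afp by 5.21 and Gpc3 by 4.49 among them. The hepatocyte secreted protein genes numbered 11, of which 8 were lower, 1 higher and 2 not past the test (median −0.22), with list means of 13.45 to 13.55 against 13.21 to 13.36 and a change of 0.04 (SE 0.0252) for Alb. The part of cell composition in the falls of the enzymes was not tested.

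**Figure D2:**
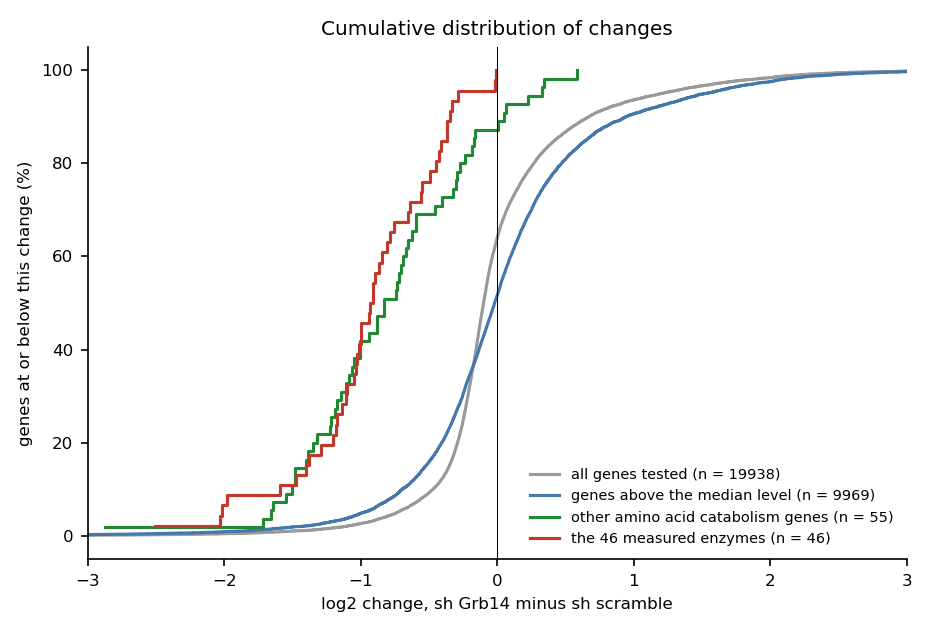
Cumulative share of genes, in percent, at or below each log2 change, sh Grb14 minus sh scramble, for all genes, genes above the median level, the other amino acid catabolism genes and the 46 measured enzymes. The axis is drawn from −3 to 3. The curve of the enzymes lies to the left, with a median of −0.93, and ends at 0, whereas the curve of all genes is centred at −0.10.

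The promoters of 7 enzymes are shown so that the 4 largest falls (Prodh, Hal, Agxt and Haao) can be set beside both enzymes that did not pass (Gpt2 and Got2) and beside Dmgdh, whose window overlaps that of a second member. Each is the RefSeq window from 250 bases before to 50 bases after the gene's start on GRCm38.p6, written 5′ to 3′ on the gene's own strand, and capitals mark CpG dinucleotides.
Prodh, chr16:18089141-18089440, minus strand: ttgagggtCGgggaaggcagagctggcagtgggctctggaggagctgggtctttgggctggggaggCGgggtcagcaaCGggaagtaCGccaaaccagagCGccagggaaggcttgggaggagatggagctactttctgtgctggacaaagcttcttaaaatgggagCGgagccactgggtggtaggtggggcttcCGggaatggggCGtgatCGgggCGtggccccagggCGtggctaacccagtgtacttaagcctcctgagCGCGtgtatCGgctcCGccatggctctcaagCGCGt
Hal, chr10:93488518-93488817, plus strand: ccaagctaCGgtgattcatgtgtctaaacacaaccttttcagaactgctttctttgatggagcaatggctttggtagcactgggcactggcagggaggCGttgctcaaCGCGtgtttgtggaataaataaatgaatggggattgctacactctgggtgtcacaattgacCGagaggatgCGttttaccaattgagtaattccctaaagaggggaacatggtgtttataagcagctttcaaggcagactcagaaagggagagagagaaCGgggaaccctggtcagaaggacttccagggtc
Agxt, chr1:93134990-93135289, plus strand: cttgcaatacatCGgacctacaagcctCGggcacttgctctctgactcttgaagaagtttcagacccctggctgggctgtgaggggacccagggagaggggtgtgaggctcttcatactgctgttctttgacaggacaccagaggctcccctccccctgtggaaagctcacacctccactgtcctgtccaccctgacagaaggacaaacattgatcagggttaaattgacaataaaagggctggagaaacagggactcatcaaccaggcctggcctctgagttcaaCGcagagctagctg
Haao, chr17:83846741-83847040, minus strand: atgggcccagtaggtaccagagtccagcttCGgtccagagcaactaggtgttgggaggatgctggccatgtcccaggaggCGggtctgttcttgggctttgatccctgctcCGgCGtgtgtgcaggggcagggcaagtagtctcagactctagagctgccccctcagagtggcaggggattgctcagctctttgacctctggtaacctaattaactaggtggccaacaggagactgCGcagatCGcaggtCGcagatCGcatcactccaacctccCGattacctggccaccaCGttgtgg
Dmgdh, chr13:93674186-93674485, plus strand: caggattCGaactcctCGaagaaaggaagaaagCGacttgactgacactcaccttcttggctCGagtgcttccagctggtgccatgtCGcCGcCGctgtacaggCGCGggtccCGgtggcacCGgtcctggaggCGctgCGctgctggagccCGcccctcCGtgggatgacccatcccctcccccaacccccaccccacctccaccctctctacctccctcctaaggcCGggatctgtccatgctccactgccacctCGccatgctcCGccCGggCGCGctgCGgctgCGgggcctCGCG
Gpt2, chr8:85492326-85492625, plus strand: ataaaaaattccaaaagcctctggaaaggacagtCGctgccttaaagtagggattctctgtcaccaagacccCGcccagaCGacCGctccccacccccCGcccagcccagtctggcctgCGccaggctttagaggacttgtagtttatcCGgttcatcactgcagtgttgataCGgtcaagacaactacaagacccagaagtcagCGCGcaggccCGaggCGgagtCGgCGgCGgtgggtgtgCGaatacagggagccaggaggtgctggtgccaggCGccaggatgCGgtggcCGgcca
Got2, chr8:95888352-95888651, minus strand: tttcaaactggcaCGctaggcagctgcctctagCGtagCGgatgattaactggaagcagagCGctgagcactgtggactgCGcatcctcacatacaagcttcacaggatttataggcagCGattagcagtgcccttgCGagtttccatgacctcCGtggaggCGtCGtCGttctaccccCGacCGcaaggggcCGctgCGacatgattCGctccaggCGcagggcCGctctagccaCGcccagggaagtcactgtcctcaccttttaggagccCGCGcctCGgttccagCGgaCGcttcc

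The windows differ in CpG content. They hold 17 CpG in Prodh, 7 in Hal, 3 in Agxt, 10 in Haao, 25 in Dmgdh, 19 in Gpt2 and 24 in Got2. Windows were found for 40 of the 46 measured enzymes, 44 windows in all, with a median of 10 CpG against 7 in all 32851 windows of the table. Genes with a window of at least 20 CpG (10 genes) had changes from −1.21 to −0.01 with a median of −0.90, and those with at most 5 CpG (13 genes) from −2.02 to −0.37 with a median of −1.01. Of the 4 enzymes with 2 windows, Bckdhb stands in both sets.

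Short motifs were searched on both strands, and the TATA box TATAAA was in 5 of the 44 windows (11.4%; 13.6% of all windows), and the core of the cyclic AMP response element TGACG in 6 (13.6%; 20.8%). The C/EBP type site TTGCNNAA was in 4 (9.09%; 10.8%) and the HNF1 type site GTTAAT in 5 (11.4%; 7.1%). Hal held a TATAAA and a TTGCNNAA match, Haao a GTTAAT match and Got2 a TATAAA and a GTTAAT match, whereas Prodh, Agxt, Dmgdh and Gpt2 held none of the 4, so that large falls and unpassed changes are found with and without a match. A match in letters is a description and not a binding site.

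Proline oxidation held the largest fall of the 46 enzymes. Prodh, the proline dehydrogenase that opens proline breakdown in mitochondria, lay between 11.51 and 11.70 (median 11.56) in sh scramble livers and between 8.75 and 9.41 (median 9.09) in sh Grb14 livers. The groups stood 2.09 apart at their nearest mice. The change was −2.51 (SE 0.0909), 5.69-fold lower, with an adjusted p of 5.29e-13. Prodh2, which oxidises hydroxyproline, went from 10.03 to 10.36 (median 10.14) down to 8.93 to 9.31 (median 9.10), a change of −1.03 (SE 0.0685). Aldh4a1, the dehydrogenase that yields glutamate in the proline route, went from 11.15 to 11.34 (median 11.27) down to 10.04 to 10.51 (median 10.29), a change of −1.0 (SE 0.065). All 3 genes of the pathway thus fell with no overlap, where 20.8% of all genes were lower with no overlap. Prodh fell more than Prodh2 in the test of pairs given below.

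The genes of all 4 steps of histidine breakdown were lower, where 39.5% of all genes tested were lower. Hal, histidine ammonia-lyase, lay between 12.48 and 12.64 (median 12.60) in sh scramble and between 9.94 and 11.09 (median 10.62) in sh Grb14 livers. The change was −2.04 (SE 0.132), 4.10-fold lower, with an adjusted p of 6.66e-10, and the sh Grb14 livers ranged over more than 1 log2 unit. Uroc1, the urocanate hydratase of the second step, went from 11.08 to 11.42 (median 11.19) down to 9.88 to 10.54 (median 10.16), a change of −1.05 (SE 0.0866). Amdhd1, the imidazolonepropionase of the third step, went from 10.53 to 10.66 (median 10.64) down to 9.09 to 9.87 (median 9.55), a change of −1.10 (SE 0.0929). Ftcd, which hands the last histidine fragment to folate, changed by −0.76 (SE 0.0564). The first enzyme of the route had the largest change and the last the smallest.

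In the tyrosine route the largest changes were at the first steps and the smallest in the middle. Tat, tyrosine aminotransferase, lay between 13.24 and 13.46 (median 13.36) in sh scramble and between 11.51 and 12.38 (median 12.05) in sh Grb14 livers, a change of −1.38 (SE 0.126; adjusted p = 5.18e-08). Hpd, the dioxygenase that makes homogentisate, went from 12.98 to 13.09 (median 13.04) down to 10.92 to 11.73 (median 11.57), a change of −1.595 (SE 0.117), 3.02-fold lower. Neither pair of groups overlapped. Hgd, which opens the ring of homogentisate, changed by −0.37 (SE 0.0416). The isomerase Gstz1 changed by −0.94 (SE 0.0549), and Fah, the last enzyme, which yields fumarate and acetoacetate, by −0.64 (SE 0.0429). All 5 genes passed as lower, and 2 of them were at least 2-fold lower, against 39.5% and 2.65% of all genes.

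Tryptophan breakdown through kynurenine did not follow that order. Haao, which makes the precursor of quinolinate, lay between 12.26 and 12.41 (median 12.36) in sh scramble and between 9.92 and 10.87 (median 10.40) in sh Grb14 livers. The change was −1.98 (SE 0.114), 3.95-fold lower, with an adjusted p of 1.40e-10. Kynu, kynureninase, went from 12.004 to 12.144 (median 12.10) down to 10.55 to 11.02 (median 10.78), a change of −1.29 (SE 0.0677). These late steps changed more than the opening enzyme, the dioxygenase Tdo2, at −0.56 (SE 0.0449), and the hydroxylase Kmo, at −0.45 (SE 0.0427). Acmsd, which diverts the intermediate away from quinolinate and NAD synthesis, changed by −0.49 (SE 0.136; adjusted p = 0.00502). Its sh scramble livers were spread from 9.77 to 10.46 (median 9.90), and the highest sh Grb14 liver, at 9.77, lay only 0.00319 below the lowest of them. The differences between steps of a route were not tested.

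The aminotransferases split. Agxt, which converts glyoxylate to glycine, lay between 10.62 and 10.81 (median 10.74) in sh scramble and between 8.12 and 9.19 (median 8.72) in sh Grb14 livers, a change of −2.02 (SE 0.122), 4.05-fold lower (adjusted p = 2.56e-10). The groups were 1.43 apart. Gpt, the cytosolic alanine aminotransferase, went from 10.03 to 10.16 (median 10.09) down to 9.61 to 9.93 (median 9.73), a change of −0.34 (SE 0.0521; adjusted p = 2.23e-05). Its mitochondrial counterpart Gpt2 lay between 12.10 and 12.25 (median 12.19) and between 11.98 and 12.29 (median 12.18), a change of −0.01 (SE 0.0454; adjusted p = 0.802), with overlapping groups.

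The aspartate aminotransferases showed a like split. Got1, the cytosolic enzyme, lay between 12.16 and 12.45 (median 12.35) in sh scramble and between 11.73 and 12.17 (median 12.04) in sh Grb14 livers. Its change was −0.33 (SE 0.0658; adjusted p = 0.000335), and sh Grb14 mouse 5 lay just above sh scramble mouse 6, so the groups touched. Got2, the mitochondrial enzyme, lay between 13.23 and 13.27 (median 13.24) and between 13.15 and 13.28 (median 13.26), a change of −0.01 (SE 0.0287; adjusted p = 0.787). A second probe set of Got2 changed by −0.02 (SE 0.0277; adjusted p = 0.486) in a fit of all probe sets.

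**Figure D3:**
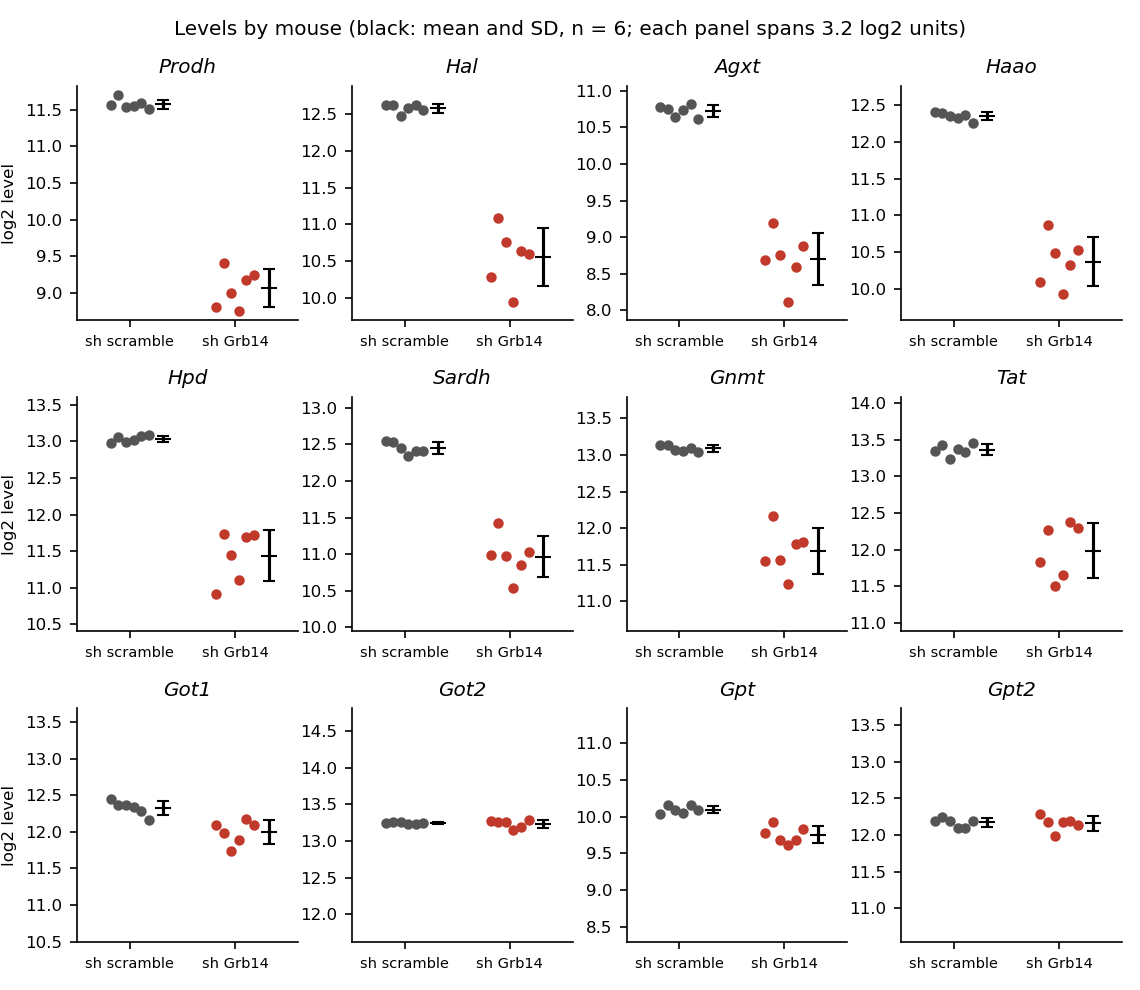
Log2 level of 12 enzymes in each mouse, sh scramble in grey and sh Grb14 in red, with the mean and SD of each group (n = 6) in black. Each panel spans 3.2 log2 units, so distances compare between panels. The groups are 2.09 apart for Prodh and overlap for Got1, Got2 and Gpt2.

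Gnmt, Sardh and Dmgdh, which share the handling of glycine and its methylated forms, fell by more than 2-fold. Gnmt, the glycine N-methyltransferase that uses up S-adenosylmethionine, lay between 13.04 and 13.14 (median 13.08) in sh scramble and between 11.24 and 12.17 (median 11.68) in sh Grb14 livers, a change of −1.40 (SE 0.105), 2.64-fold lower (adjusted p = 3.97e-09). Sardh, sarcosine dehydrogenase, went from 12.33 to 12.55 (median 12.43) down to 10.54 to 11.42 (median 10.98), a change of −1.48 (SE 0.0993). Dmgdh, dimethylglycine dehydrogenase, which makes sarcosine from the choline-derived methyl donors, went from 12.30 to 12.40 (median 12.35) down to 11.05 to 11.48 (median 11.35), a change of −1.03 (SE 0.0545). All 3 separated the groups fully. Of all genes tested, 20.8% were lower with no overlap, and 2.65% passed with a fall of at least 2-fold.

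Of the other genes of the methionine cycle, Mat1a and Bhmt had smaller changes than Bhmt2. Mat1a, which makes S-adenosylmethionine in liver, fell by 0.37 (SE 0.0641). Bhmt, which remethylates homocysteine with betaine, lay between 13.20 and 13.42 (median 13.26) and between 12.77 and 13.11 (median 12.99), a change of −0.29 (SE 0.0514). Its relative Bhmt2, a methyltransferase that uses S-methylmethionine, went from 11.90 to 12.03 (median 11.93) down to 10.78 to 11.19 (median 11.12), a change of −0.87 (SE 0.0572). The other probe sets of Bhmt changed by −0.28 (SE 0.0498) and −0.51 (SE 0.114) and passed as well, and related sequences can contribute to each.

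Dmgdh and Bhmt2 are neighbours that start back to back. On GRCm38.p6 their start sites lie 134 bases apart on chromosome 13, at 93674436 on the plus strand for Dmgdh and 93674302 on the minus strand for Bhmt2, so that their promoter windows share 233 bases of the Dmgdh sequence shown above. In the 6 sh Grb14 livers, mice 1 to 6, Dmgdh read 11.34, 11.36, 11.39, 11.05, 11.34 and 11.48. Bhmt2 read 11.12, 11.19, 11.13, 10.78, 11.06 and 11.17 in the same mice. Mouse 4 was the lowest for both, as it was of its group in 36 of the 46 enzymes (78.3%). This pair was picked after its values were seen and was not tested.

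All 7 measured genes of glycine and cysteine breakdown were lower, where 39.5% of all genes tested were lower. In the glycine cleavage system, which splits glycine in mitochondria, Amt, the aminomethyltransferase, changed by −0.94 (SE 0.0811) and Gcsh, the lipoate carrier protein, by −0.90 (SE 0.101). Gldc, the decarboxylase that starts the reaction, changed by −0.41 (SE 0.0703; adjusted p = 8.52e-05). Gcsh was the dimmest of the 46 enzymes, at percentile 58.1 of all genes by mean level.

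Csad, which makes hypotaurine, had the widest sh scramble spread of this route. It lay between 10.98 and 11.73 (median 11.40) in sh scramble and between 10.17 and 10.71 (median 10.29) in sh Grb14 livers, a change of −1.01 (SE 0.115). Cbs and Cth, the 2 enzymes of transsulfuration that turn homocysteine into cysteine, changed by −0.91 (SE 0.058) and −0.55 (SE 0.0839). Cdo1, the cysteine dioxygenase that feeds taurine synthesis, fell by 0.91 (SE 0.0553). The groups of all 4 were separate, where 20.8% of all genes were lower with no overlap.

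Of the branched-chain amino acid enzymes listed, all 8 fell, with a median change of −0.83 and no overlap in any of them. In all genes tested 39.5% were lower, and 20.8% were lower with no overlap. Bckdha and Bckdhb, the E1 subunits of the branched-chain ketoacid dehydrogenase, went from 10.65 to 10.81 (median 10.71) and 11.02 to 11.12 (median 11.09) down to 9.80 to 10.36 (median 10.06) and 10.50 to 10.79 (median 10.68). Their changes were −0.65 (SE 0.0769) and −0.43 (SE 0.0522). Dbt, the E2 core of the same complex, went from 11.52 to 11.62 (median 11.59) down to 10.25 to 10.71 (median 10.48), a change of −1.11 (SE 0.0577). Ivd, isovaleryl-CoA dehydrogenase of the leucine branch, fell by 0.85 (SE 0.0546).

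The carboxylases and the valine branch followed. Mccc1 and Mccc2, both subunits of methylcrotonyl-CoA carboxylase in the leucine branch, went from 9.49 to 9.81 (median 9.54) and 9.67 to 9.80 (median 9.69) down to 8.54 to 8.97 (median 8.81) and 8.36 to 8.76 (median 8.56). Their changes were −0.81 (SE 0.0749) and −1.17 (SE 0.0647). Hibch, the hydrolase of the valine branch, went from 10.17 to 10.37 (median 10.25) down to 8.86 to 9.28 (median 9.18), a change of −1.14 (SE 0.0687). Hibadh, the next enzyme, fell by 0.79 (SE 0.0456), while its second probe set, at a level of 3.98, changed by −0.03 (adjusted p = 0.748).

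Propionyl-CoA carboxylase receives the carbon of valine, isoleucine, threonine and methionine, and Aass opens lysine breakdown. Pcca and Pccb, the carboxylase subunits, went from 10.07 to 10.36 (median 10.18) and 10.67 to 10.76 (median 10.75) down to 8.95 to 9.35 (median 9.20) and 9.36 to 9.64 (median 9.56). Their changes were −1.0 (SE 0.0669) and −1.21 (SE 0.0472), the latter with an adjusted p of 1.25e-12. Aass went from 11.89 to 12.09 (median 11.99) down to 10.45 to 11.09 (median 10.84), a change of −1.18 (SE 0.0845). All 3 separated the groups, where 20.8% of all genes were lower with no overlap.

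Isozymes, related enzymes and subunits of one enzyme did not change equally within their pairs. For 7 pairs the log2 difference of both genes was taken within each mouse and compared between the groups with a two-sided exact permutation test, adjusted over the 7 pairs. Prodh changed by −1.48 (SE 0.11) relative to Prodh2, and Bhmt by 0.58 (SE 0.0354) relative to Bhmt2, which fell more. The value for Bhmt rests on its brightest probe set, and a dimmer one changed by −0.51 (SE 0.114), nearer to Bhmt2. Mccc1 changed by 0.36 (SE 0.0445) relative to Mccc2, which fell more, and Gpt changed by −0.33 (SE 0.0643) relative to Gpt2. In these 4 pairs the within-mouse differences of the groups did not overlap (exact p = 0.00216, the smallest that 6 against 6 mice can give; adjusted 0.00379).

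The other 3 pairs differed less. Got1 changed by −0.32 (SE 0.0787) relative to Got2, and Bckdha by −0.23 (SE 0.0593) relative to Bckdhb (exact p = 0.00433 each; adjusted 0.00505). Pcca changed by 0.21 relative to Pccb, which fell more (SE 0.067; exact p = 0.0152; adjusted 0.0152). The groups overlapped in these 3 pairs. All 7 passed. Probe sets can respond with different slopes to the same change in RNA, which was not tested.

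The 6 sh Grb14 livers differed among themselves. The SD was larger in sh Grb14 than in sh scramble livers for 43 of the 46 enzymes (93.5%), with median SDs of 0.163 and 0.064, against 53.4% of all genes. It was also larger for most genes of other lists, among them 90.9% of hepatocyte secreted protein genes, 87.5% of periportal genes and 83.6% of the other amino acid catabolism genes. The same held for 4 of 4 fetal liver genes, 8 of 10 pericentral genes and 6 of 8 kidney tubule markers. It was larger for only 3 of 10 Kupffer cell, 3 of 9 recruited macrophage and 3 of 8 sinusoidal endothelial markers. Mouse 4 was the lowest of its group in 36 enzymes (78.3%; 18.8% of all genes) and mouse 2 the highest in 31 (67.4%; 11.5% of all genes). Among genes above the median level, mouse 4 was lowest in 30.3% and mouse 2 highest in 16.6%. In sh scramble livers no mouse was lowest in more than 12 enzymes.

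The same mice stood at the ends of the Grb14 range. Grb14 was 8.02 in mouse 4, where the median enzyme lay 1.15 log2 units below its sh scramble mean (−1.15), and 8.44 in mouse 2, where it lay at −0.75. The others lay in between, with Grb14 at 8.22, 8.24, 8.22 and 8.29 and the median enzyme at −0.86, −0.93, −0.96 and −0.82 in mice 1, 3, 5 and 6. The mean over the recruited macrophage markers was lowest in mouse 2 (9.57) and highest in mouse 3 (9.91), with mouse 4 at 9.88. The mean over T cell markers was highest in mouse 4 (8.77), lowest in mouse 1 (8.45) and 8.46 in mouse 2. The mean over hepatocyte secreted proteins was lowest in mouse 4 (13.21). What these values have to do with the order was not tested.

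**Figure D4:**
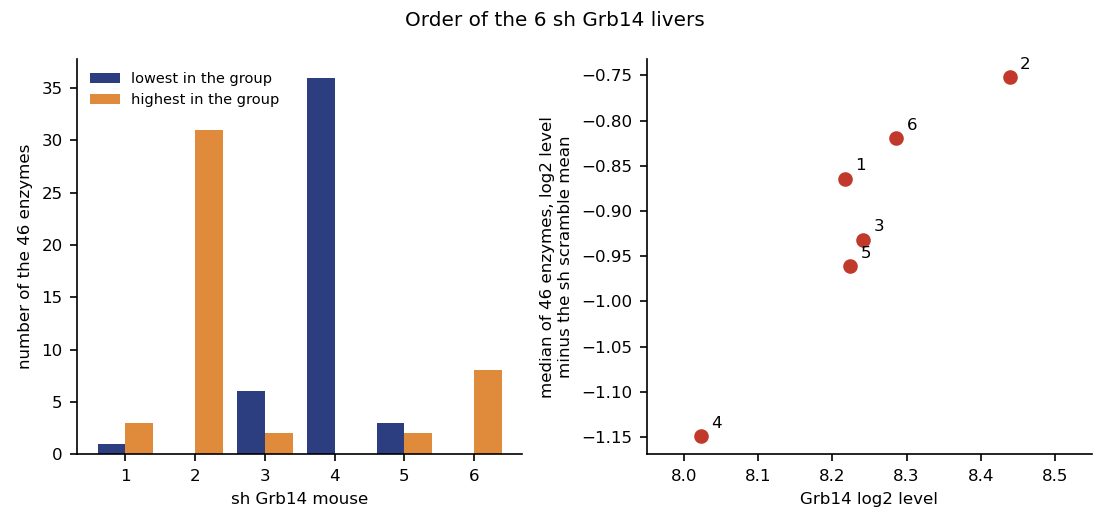
Left, the number of the 46 enzymes for which each sh Grb14 mouse was the lowest or the highest of its group. Right, the median log2 level of the enzymes, each less its sh scramble mean, against the Grb14 log2 level of the same mouse. Mouse 4 is lowest in 36 enzymes and has the lowest Grb14 level (8.02), and mouse 2 is highest in 31 and has the highest (8.44).

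**Figure D5:**
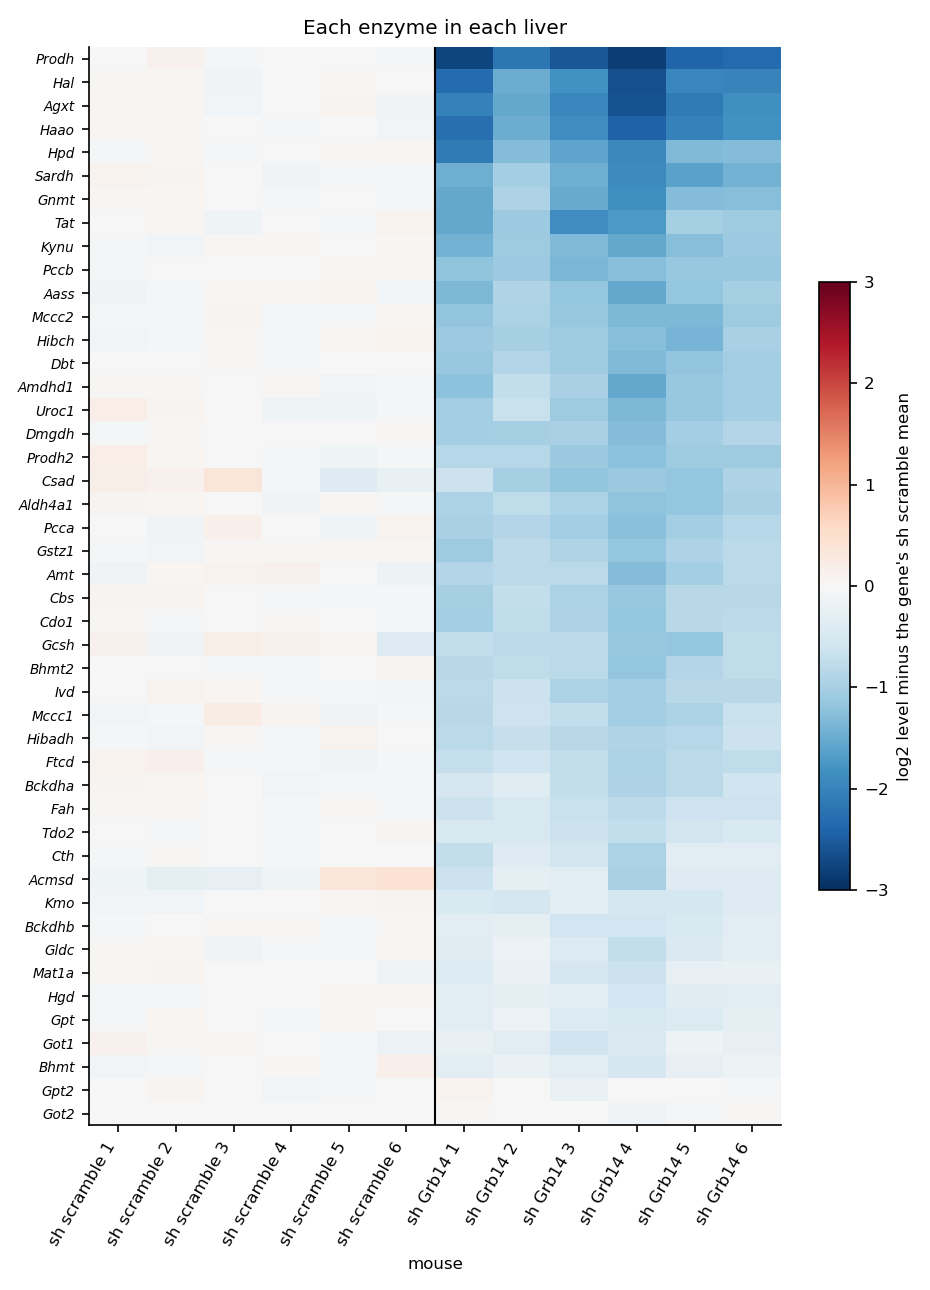
Log2 level of each enzyme in each mouse, less the gene's sh scramble mean, sorted by change. Blue is lower. The 6 sh Grb14 columns are blue down to the last rows, Gpt2 and Got2, and darkest in mouse 4.

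Further genes of amino acid breakdown, outside the 49, moved the same way. Among the 55 that were measured there were 48 falls and 4 rises, 3 missed the threshold, and the median change was −0.83. Of all genes tested 39.5% were lower and 25.8% higher. The largest falls were those of Ido2, a tryptophan dioxygenase gene (−2.87, SE 0.0919), Dpys, of pyrimidine and beta-amino acid breakdown (−1.72, SE 0.0819), and Acadsb, the acyl-CoA dehydrogenase of the isoleucine branch (−1.66, SE 0.0921). Aspg, an asparaginase, changed by −1.64 (SE 0.0876), and Afmid, the kynurenine formamidase, by −1.55 (SE 0.0781). The genes that rose were Bckdk, Asrgl1, Mtr and Glud1, named after their values were seen. Bckdk, the kinase that switches the branched-chain complex off, rose by 0.58 (SE 0.0416), and Ppm1k, the phosphatase that switches it on, fell by 0.59 (SE 0.0777). Glud1, glutamate dehydrogenase, rose by 0.23 (SE 0.0422). Mri1, Acat1 and Bcat1 did not pass, with changes of 0.003, 0.05 and 0.06.

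Amino acid transporters went both ways. The 21 transporters split into 11 that fell, 9 that rose and Slc43a1, which missed the threshold (median −0.18). In percent these counts lie not far from the shares of genes above the median level that were lower (40.2%) and higher (37.9%). Slc1a2, a glutamate transporter of pericentral hepatocytes, went from 11.23 to 8.74 (−2.49, SE 0.15), and Slc6a12, a betaine transporter, from 11.67 to 9.92 (−1.75, SE 0.0661). In the other direction, the neutral amino acid transporter Slc1a4 went from 7.80 to 9.92 (2.12, SE 0.0764), the glutamine transporter Slc38a1 from 6.95 to 8.96 (2.01, SE 0.065) and Slc1a5 from 7.54 to 9.02 (1.48, SE 0.115). Macrophage and T cell markers rose in the same livers, as given above, and their part in these rises was not tested.

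Genes of amino acid synthesis are few here. The list has 6 measured members, 4 of them higher and 1 lower, and its median change was 0.37, where 25.8% of all genes were higher. Aldh18a1, which starts proline synthesis, rose by 1.70 (SE 0.0557) where Prodh, which starts its breakdown, fell. Psat1, of serine synthesis, rose by 1.495 (SE 0.0885), Phgdh, the first enzyme of that route, by 0.55 (SE 0.154) and Psph, its last, by 0.19 (SE 0.0551). Glul, glutamine synthetase, fell by 0.76 (SE 0.0561), and Asns had a change of −0.12 (SE 0.128; adjusted p = 0.428).

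Genes of cofactors and of hormonal and transcriptional control were mostly lower. The cofactor list held 14 measured genes, 12 lower and 1 higher, with a median of −0.55, and Aldh1l2 missed the threshold. The shares of all genes were 39.5% lower and 25.8% higher. Nmrk1, a kinase of NAD salvage, changed by −1.55 (SE 0.129) and Aldh1l1, the cytosolic formyltetrahydrofolate dehydrogenase, by −1.19 (SE 0.0749). Pdxk, which activates vitamin B6, the cofactor of aminotransferases, changed by −1.13 (SE 0.0447), and Mthfd1, a folate enzyme, by −1.10 (SE 0.0566). Mthfd1l, a mitochondrial folate enzyme, rose by 1.04 (SE 0.057).

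Of 14 measured control genes 13 fell, where 39.5% of all genes were lower, and the median change was −0.80. Cebpb did not pass (−0.16, SE 0.0722, limma adjusted p = 0.067). Cebpa, a transcription factor of mature hepatocytes, went from 11.66 to 9.94 (−1.71, SE 0.055). Klf15, a transcription factor known to raise amino acid breakdown genes in fasting, went from 10.25 to 8.87 (−1.38, SE 0.0703). Crebl2 changed by −1.205 (SE 0.0509), Insr, the insulin receptor, by −1.09 (SE 0.0407) and Ppara, a fasting regulator, by −1.065 (SE 0.0479). Gcgr, the glucagon receptor, changed by −0.90 (SE 0.0455). Among zonation markers, 6 of 8 periportal genes fell and 2 rose (median −0.50), and 6 of 10 pericentral genes fell, 2 rose and 2 did not pass (median −0.85), where 39.5% of all genes were lower and 25.8% higher.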

How the data were processed

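Liver RNA of 12 mice was measured on 12 arrays. Per the labels, RNA came from Trizol extraction, and 100 ng of it was biotin-labelled for Affymetrix whole-transcript arrays. The authors deposited log2 values for 35556 probe sets. The submitters' processing notes name RMA and Partek with no version or role, and the probe build is not given in the sources used here. Of the probe sets, 21789 had 1 symbol in the platform annotation, 1621 had several and 12146 none. Where a symbol had several, the brightest by mean across arrays stood for it, which gave 19938 genes. For 43 of the 46 enzymes only 1 probe set exists.

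Genes were fitted with limma 3.58.1 in R 4.3.3 (lmFit, eBayes with an intensity trend, all arrays, no covariate, no filter), with Benjamini-Hochberg adjustment over all genes and a threshold of 0.05. The same fit was tested on simulated data with 200 changed genes, of which 200 were recovered. Pairs were compared with an exact permutation test in Python 3.11.15. Promoter windows came from RefSeq (GRCm38.p6), matched by symbol.

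The text accounts for every member. It gives ranges for those at least 2-fold changed and for the pairs, and names at most the 5 largest changes of each other list and at most 3 genes that did not pass. Ppm1k, Bckdk, Asrgl1, Mtr, Glud1, Gcgr and Cd4 were named outside that rule, after their values were seen, and the marker lists are given mainly as counts. The members, lists and tests were chosen with earlier results of these data known. The alternatives were median centring, quantile normalization, the mean over probe sets, a level filter, no trend, robust eBayes, array weights and leaving out each mouse. Centring on the genes tested was added after seeing the data. The number of arrays limits the precision, and no scan date or batch is given in the labels, so a batch that followed the groups cannot be told apart from them.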

Additional observations from a re-analysis of the deposited data

Results flagged for a closer look

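In 4 of 92 groups of 6 values (46 enzymes in 2 groups) 1 mouse stood apart from the rest by Dixon's ratio at its 95% critical value. Chance alone gives about 1 in 20 such groups. Hgd read 12.62 in sh Grb14 mouse 4, against 12.82 to 12.89 in the other 5 mice. Bhmt2 read 10.78 in the same mouse, against 11.06 to 11.19. Dmgdh read 11.05 there, against 11.34 to 11.48. Tdo2 read 13.11 in sh scramble mouse 6, against 12.98 to 13.02 in the others. Without sh Grb14 mouse 4 the change of Hgd was −0.33, that of Bhmt2 −0.81 and that of Dmgdh −0.98, and all 3 still passed.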

How the results depend on the processing

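The number of enzymes past the test and lower was 44 under 19 of the 20 alternatives and 46 with arrays centred on the genes tested. That centring moved the share of all genes lower from 39.5% to 64.9%, the median of all genes from −0.10 to −0.25 and the part of all called genes that was higher from 39.5% to 23.0%, and the median change of the enzymes from −0.93 to −1.07. The number higher was 1 instead of 0 with quantile normalization, where Got2 reversed to 0.0696 (adjusted p = 0.0178). The cause was not tested. Apart from Gpt2 and Got2, each enzyme kept its direction and passed under every alternative that was run. Leaving out 1 mouse gave medians of −0.96 to −0.87 and 44 enzymes lower each time. The 7 pairs kept their direction and passed under quantile normalization, the mean over probe sets and each left-out mouse. No detection call was made, and neither a floor nor a ceiling of signal was tested, although Got2 and Bhmt lie at percentiles 99.9 and 99.8 of all genes by level. No paired analysis was possible because the labels give no shared replicate numbers, only single mouse numbers.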
